A study of Mus musculus with 6 samples.

Results

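The cytosolic ribosomal proteins were followed here in tumors that grew in the brains of mice with or without Esm1, the gene for the secreted proteoglycan Endocan. They were taken from the deposited gene table by symbol, as every gene whose symbol begins with Rps or Rpl and continues in a number, a, or p0 to p2, which leaves out the ribosomal S6 kinases. The pattern found 82 of 16729 genes, of which 33 encode proteins of the 40S subunit or their relatives (Rps) and 49 those of the 60S subunit or their relatives (Rpl). Among the 82 are 5 paralogs that stand outside the standard set of ribosomal proteins, namely Rpl3l, Rpl7l1, Rpl22l1, Rps4l and Rps27l. Fau, which also encodes a ribosomal protein, does not match the pattern and is described with other translation genes.

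Each tumor grew from mG7080 cells, a mouse GBM gliomasphere line with mutated p53, injected intracranially into female C57BL/6 hosts. The strain is spelled as in the labels, and purchased mice were C57BL/6J. Host age is left out because it is given as differing ranges in the sources used here. The hosts were either wild type (WT 1, WT 2 and WT 3) or Esm1 knockout (KO 1, KO 2 and KO 3), with 1 library from each of 3 tumors per group. Both groups received the same tumor cells, so the deletion lay in the host alone, and the tumor cells were from 1 line. RNA came from whole resected tumor, so each library mixes tumor and host RNA, and fewer cells of a type and less RNA per cell cannot be told apart.

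A cytosolic ribosome is built from 2 subunits, and each of its proteins is present once per particle apart from the acidic stalk proteins. The 40S subunit reads the mRNA, and the 60S subunit joins amino acids and passes the new chain out through its exit tunnel. Ribosomal protein mRNAs are among the most abundant in dividing cells, many begin with a stretch of pyrimidines at the cap (the 5′ terminal oligopyrimidine tract) through which mTOR signaling controls their translation, and MYC is a known driver of their transcription.

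Libraries held between 17632070 and 22241832 counts on genes. Esm1 had 25, 21 and 82 counts in the WT libraries and 1, 24 and 4 in those labelled KO 1, KO 2 and KO 3. The library labelled KO 2 thus held Esm1 reads at the level of WT 1 and WT 2. Whether these came from host or tumor cells cannot be told apart, and KO 2 stands for the library labelled so. Results are therefore given over all 6 libraries and over WT 1, WT 2, KO 1 and KO 3. These 4 are the libraries that the study's own table of results names. Levels are counts per 1000000 of the library (CPM) after TMM scaling, and differences are log2 fold changes (KO minus WT) from edgeR's quasi-likelihood test. The standard error (SE) is the size of the log2 fold change divided by the square root of the test's F statistic. A gene was called at an adjusted p under 0.05 (Benjamini-Hochberg, over all genes tested). Some lists and named genes are given over the 4 libraries alone. EdgeR called none of these over all 6, and the named genes' log2 fold changes there were smaller in size.

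Sequences are shown for 2 reasons, the first being that a paralog of the same coding length held most of the counts of its pair. The reference transcripts are 345 bases long for Rps27 and 499 for its paralog Rps27l. Rps27 and Rps27l both code over 255 bases and are 76.1% identical there, with no shared stretch longer than 11 bases. Their first 60 coding bases in GRCm38 differ at the 18 positions in capitals.
Rps27: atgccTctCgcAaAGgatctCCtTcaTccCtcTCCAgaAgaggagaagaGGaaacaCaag
Rps27l: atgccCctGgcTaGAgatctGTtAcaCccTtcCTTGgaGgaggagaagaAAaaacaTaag

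The second reason is the pyrimidine tract at the start of these mRNAs. RefSeq's promoter table for GRCm38.p6 matched 61 of the 82 genes with 73 start sites. A run of at least 6 letters C or T that starts with C within 5 bases of the annotated start, on the strand of the gene, was present at 27 of the 73 start sites (37.0%), against 10.2% of all 32851 in the table. Below are 30 bases around 5 start sites, 12 before and 18 from the annotated start on. These genes were chosen because they stand at the extremes of the results. In capitals is the longest run of C and T that starts with C within 5 bases of the annotated start. Rpl15 (chr14:18270969-18270998, minus strand), Rpl18 (chr7:45718059-45718088, plus strand) and Rps27 (chr3:90213631-90213660, minus strand) had runs of 17, 10 and 9 letters. Rplp0 (chr5:115559455-115559484, plus strand) and Rpl4 (chr9:64173375-64173404, plus strand) had runs of 2 letters and 1 letter. A start site annotated away from the one in use would hide a tract, so a short run does not show that the mRNA lacks one. The bases printed for Rpl4 begin with a stretch of C and T that starts before the searched span. GENCODE places the start of Rpl4 at base 64173375, the first one printed. From that start the mRNA opens with this stretch, so the run of 1 letter holds for the RefSeq start only.
Rpl15: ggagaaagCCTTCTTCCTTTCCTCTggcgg
Rpl18: gtctcgcaggccgCTCTTTCCCCgcccact
Rps27: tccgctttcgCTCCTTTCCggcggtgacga
Rplp0: ttcgggtttcgaggaCCgcctggttctcct
Rpl4: cttttcctgtgggagCagccgggtagagag

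Counts on the ribosomal protein genes took up a smaller share of the libraries labelled KO 1 and KO 3 than of any other. Their share of all counts was 1.41% in WT 1 (95% Wilson interval 1.40 to 1.41), 2.40% in WT 2 (2.39 to 2.41) and 1.91% in WT 3 (1.91 to 1.92). In the libraries labelled KO it was 0.597% in KO 1 (0.593 to 0.600), 1.59% in KO 2 (1.58 to 1.59) and 0.492% in KO 3 (0.489 to 0.495). KO 2 lay between WT 1 and WT 3, so the groups overlapped through that library alone. These intervals cover counting error only. The group means were 1.91 ± 0.498% in WT and 0.891 ± 0.604% in KO (SD, n = 3), a 2.14-fold difference, and over the 4 libraries they were 1.90 ± 0.704% and 0.544 ± 0.0742% (SD, n = 2), a 3.50-fold difference. The share is a sum over genes chosen with earlier results known, so it was not tested.

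The 2 subunits kept nearly the same proportion in all libraries. Counts on 40S genes were 0.800, 0.811 and 0.807 times those on 60S genes in WT 1, WT 2 and WT 3, and 0.834, 0.798 and 0.841 times in KO 1, KO 2 and KO 3. The ratio thus stayed within a narrow band while the share itself changed several-fold, although it was highest in KO 1 and KO 3.

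**Figure D1:**
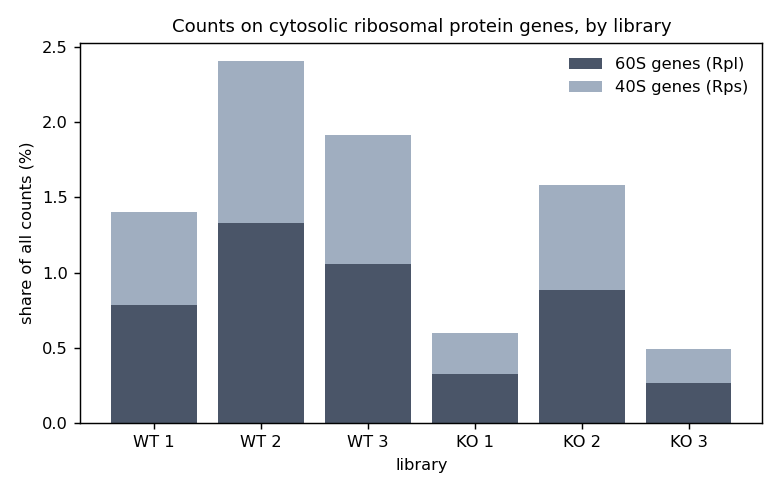
Share of each library's counts that fell on the 82 ribosomal protein genes, in percent, with 60S genes in dark grey and 40S genes in light grey stacked on them, 1 bar per library. The bars of KO 1 (0.597%) and KO 3 (0.492%) are lower than all others, and that of KO 2 (1.59%) stands between WT 1 and WT 3.

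Single genes repeated this order of the libraries. Of the 82 genes 81 passed edgeR's filter on low counts, and Rpl3l, a muscle paralog of Rpl3, did not. WT 2 was the highest library for 69 of the 81 (85.2%, against 27.0% of all genes tested), and KO 3 the lowest for 67 (30.3% of all genes tested had their lowest value there). Relative to the mean of the 3 WT libraries, the median log2 level of the members was -0.39 in WT 1, 0.27 in WT 2, 0.03 in WT 3, -1.25 in KO 1, -0.16 in KO 2 and -1.46 in KO 3. KO 1 and KO 3 both lay below all WT libraries for 73 of the 81, against 40.4% of all genes tested. For 62 of the 81 the level in KO 2 fell inside the WT range (54.6% of all genes tested), for 16 it was below and for 3 above.

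**Figure D2:**
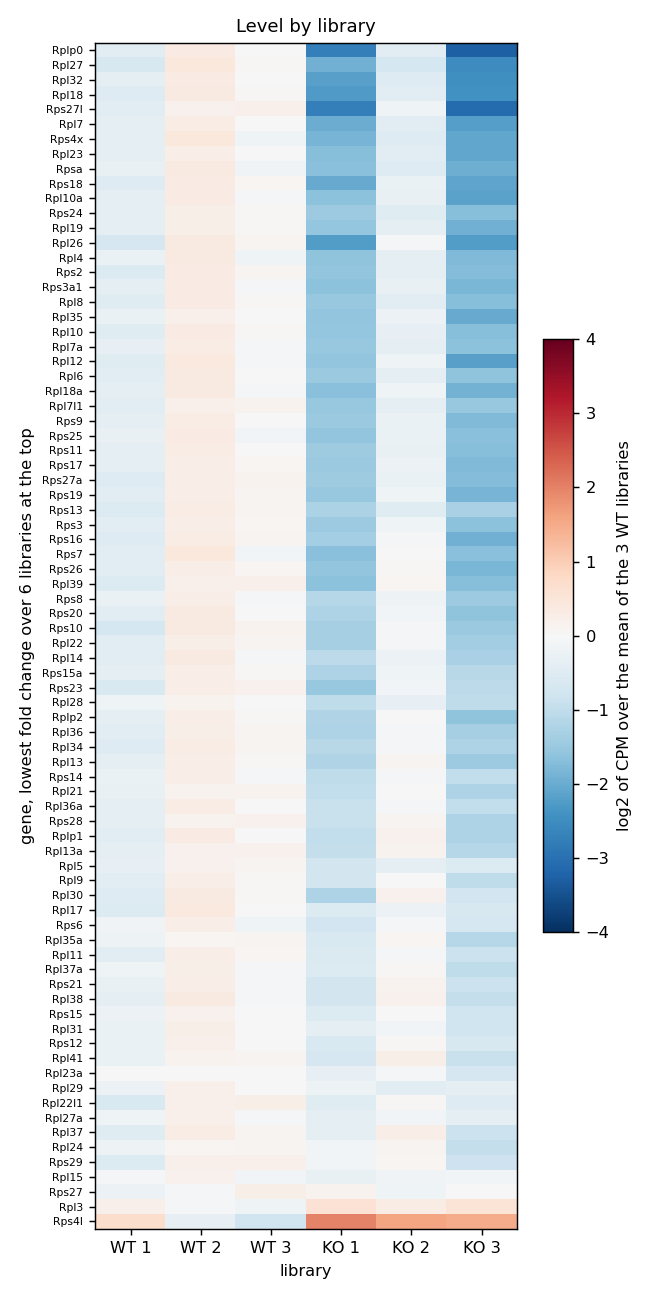
Level of 80 of the 81 tested ribosomal protein genes in each library, as log2 of the CPM over the mean CPM of the 3 WT libraries, with genes ordered by their fold change over 6 libraries. The columns of KO 1 and KO 3 are blue for nearly all genes (medians -1.25 and -1.46), that of KO 2 is close to the WT columns (median -0.16), and Rps4l at the foot of the map is red in all 3 KO libraries.

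Over all 6 libraries, 79 of the 81 genes had a lower and 2 (Rpl3 and Rps4l) a higher level in KO, with a median log2 fold change of -0.82 against -0.02 over all genes tested. No member was called in either direction by edgeR's quasi-likelihood test, and of all 16166 genes 0 were called (0.0% lower, 0.0% higher), where the lowest adjusted p was 0.184. By unadjusted p (under 0.05) 18 members were lower and 2 higher, against a background of 11.9% and 15.2% of all genes. All KO libraries lay below all WT libraries for 15 members (background 14.6%) and above them for 2 (background 13.2%). DESeq2 called 0 lower members and 1 higher (Rps4l), against 2.63% and 4.68% of all genes. With the library labelled KO 2 left out of the 6, edgeR called 64 members lower and 2 higher, with a median of -1.35, against 28.3% and 24.5% of all genes. Of the 42 members not called over the 4 libraries described next, 25 were called lower and 2 higher in this fit with WT 3 added, among them Rplp1, Rpl5, Rpl13a, Rpl26, Rps3, Rps6, Rps14, Rps15 and Rps27a (adjusted p from 0.0119 to 0.0385, edgeR), but not Rpl11 (adjusted p = 0.0597, edgeR) or Rpl38 (adjusted p = 0.0612, edgeR).

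Over WT 1, WT 2, KO 1 and KO 3, 39 of the 81 genes were called lower and 0 higher in KO (edgeR, background 13.9% lower and 2.87% higher), with a median log2 fold change of -1.33 against -0.03 over all genes tested. At an unadjusted p under 0.05 the counts were 62 lower and 2 higher (background 26.2% and 19.9%), and DESeq2 called 53 lower and 1 higher (background 19.5% and 16.6%). The 39 ran from -2.99 to -1.23, and 9 of them fell more than 4-fold (background 6.23%). Groups did not overlap for 76 members, with 73 lower (background 41.6%) and 3 higher (background 39.5%). The number of calls rested on single libraries. It was 1 lower and 0 higher without KO 3 (background 1.54% and 0.0%) and 7 lower and 0 higher without KO 1 (background 5.62% and 0.503%). Without WT 2 it was 43 lower and 0 higher (background 12.5% and 6.91%), and without WT 1 it was 72 lower (background 27.5%) and 2 higher (background 25.9%). Each such fit takes the spread of the reduced group, which then holds 1 library, from the other group.

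**Figure D3:**
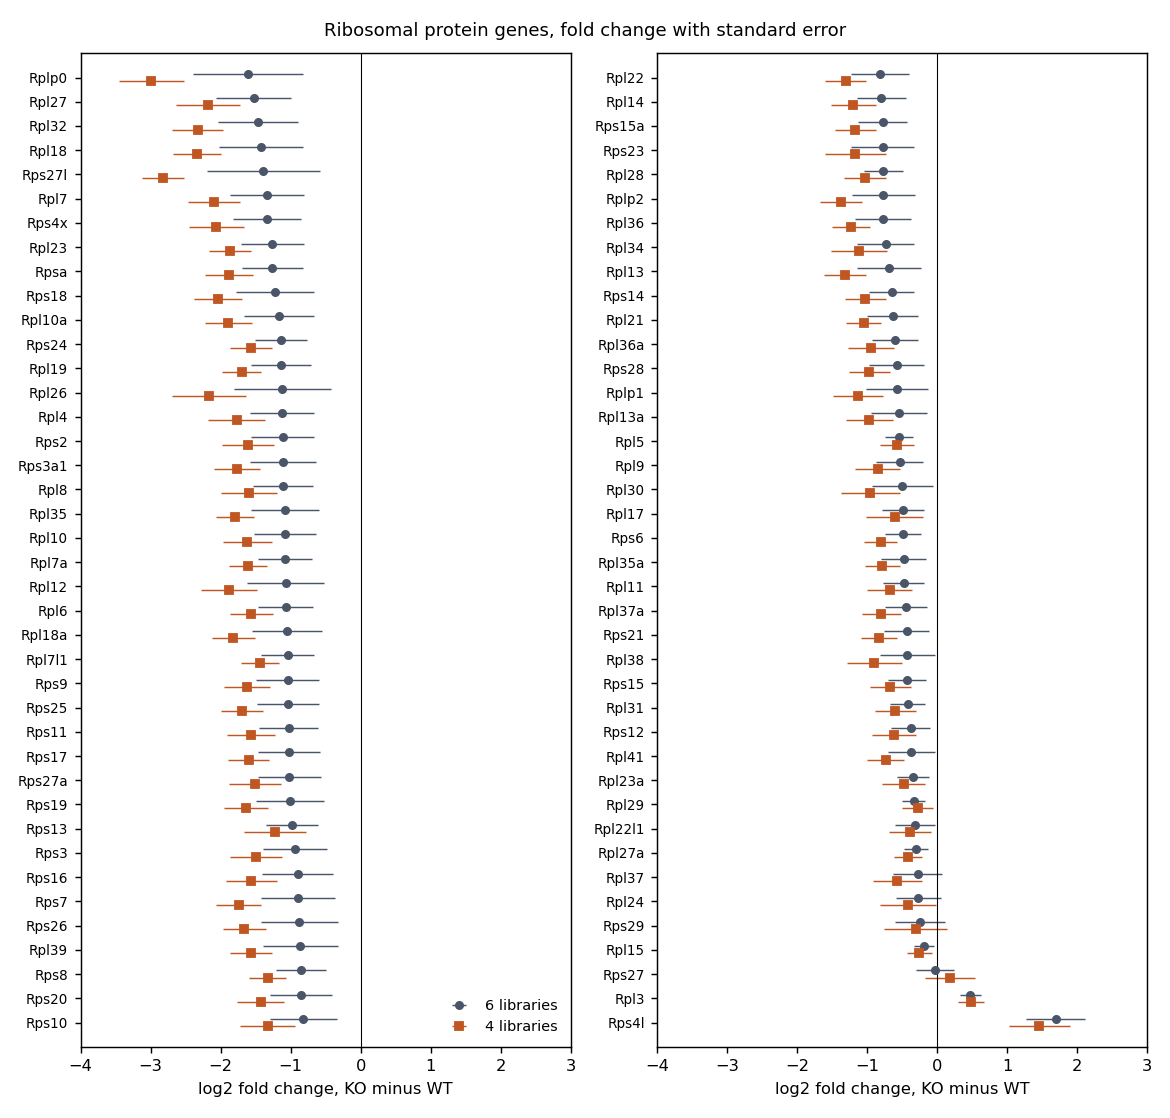
Log2 fold change (KO minus WT) of 80 of the 81 tested ribosomal protein genes with its standard error, over 6 libraries (grey circles) and over WT 1, WT 2, KO 1 and KO 3 (orange squares). Nearly all genes lie left of 0 in both comparisons and further left over 4 libraries (medians -0.82 and -1.33), whereas Rpl3 and Rps4l lie right of 0 in both.

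Fold changes differed in size across the genes, and the lowest was that of Rplp0, the scaffold of the acidic stalk of the 60S subunit, which recruits elongation factors. Rplp0 (chromosome 5, 115559467 to 115563727, GRCm38) had 1019.9, 1761.0 and 1394.2 CPM in the WT libraries, against 208.4, 1035.2 and 143.9 CPM in the KO libraries. KO 2 lay just above WT 1, and the other 2 KO libraries lay far below every WT library. Its log2 fold change was -1.61 (SE 0.79, adjusted p = 0.204, edgeR) over 6 libraries and -2.99 (SE 0.47, adjusted p = 0.0343, edgeR) over 4. Rplp2, another stalk protein, was called lower over 4 libraries (-1.37, adjusted p = 0.0448, edgeR). Its partner Rplp1 had 422.1, 708.1 and 570.7 CPM in WT and 283.5, 634.8 and 238.9 CPM in KO, and its log2 fold change of -1.13 over 4 libraries did not pass (adjusted p = 0.0754, edgeR). Of the 4 stalk genes, with Rpl12, 3 were called lower over 4 libraries (background 13.9%), with a median of -1.63.

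Genes around the exit tunnel of the 60S subunit had a median log2 fold change of -0.84 over 6 libraries and -1.43 over 4. There 4 of 8 were called lower (background 13.9%). Rpl35, one of them, had 79.1, 110.1 and 95.3 CPM in WT and 31.8, 81.4 and 23.4 CPM in KO. Its log2 fold change was -1.08 (SE 0.48, adjusted p = 0.189, edgeR) over 6 libraries and -1.79 (SE 0.27, adjusted p = 0.0343, edgeR) over 4. Rpl26, which is also linked to p53 mRNA translation, was among the least covered genes with 12 to 80 counts per library, and its -2.17 over 4 libraries missed the threshold (adjusted p = 0.051, edgeR).

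Other 60S genes held 3 of the 5 lowest fold changes over 6 libraries. Rpl32 had 508.9, 834.6 and 656.2 CPM in WT and 147.2, 463.1 and 121.5 CPM in KO. Here every KO library, KO 2 included, lay below every WT library. The log2 fold change of Rpl32 was -1.47 (SE 0.57, adjusted p = 0.184, edgeR) over 6 libraries and -2.33 (SE 0.37, adjusted p = 0.0343, edgeR) over 4. Rpl18 fell by 2.34 (SE 0.34, adjusted p = 0.0343, edgeR) over 4 libraries, with 147.2, 264.3 and 213.2 CPM in WT against 42.9, 155.2 and 39.2 CPM in KO. Rpl27 likewise had no overlap between groups, and its log2 fold changes were -1.53 over 6 libraries (adjusted p = 0.184, edgeR) and -2.18 over 4 (adjusted p = 0.0423, edgeR). Rpl4, among the most abundant members per length, had 1346.1, 2044.4 and 1432.5 CPM in WT and 529.9, 1258.5 and 471.0 CPM in KO. It was called over 4 libraries at -1.77 (SE 0.41, adjusted p = 0.0484, edgeR).

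Rpl5 and Rpl11, which carry the 5S rRNA and can bind the p53 regulator MDM2 outside the ribosome, had smaller fold changes that did not pass. Rpl5 had 33.2, 46.8 and 45.6 CPM in WT and 25.2, 32.9 and 28.6 CPM in KO. KO 2 sat just below WT 1, so the groups did not overlap. Its log2 fold change was -0.55 (SE 0.20, adjusted p = 0.184, edgeR) over 6 libraries and -0.58 (SE 0.24, adjusted p = 0.118, edgeR) over 4. For Rpl11 the values were -0.48 (SE 0.29) and -0.68 (SE 0.32), and again neither passed.

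Rpl13a, known for a role in silencing inflammatory mRNAs, Rpl38, known for selective translation of Hox mRNAs, and Rpl10, which lines the peptidyl transferase site, were named for their roles. Rpl10 was called lower over 4 libraries (-1.62, SE 0.35, adjusted p = 0.0434, edgeR). Rpl13a did not pass at -0.97 (SE 0.33, adjusted p = 0.0838, edgeR), nor did Rpl38 at -0.90 (SE 0.39, adjusted p = 0.13, edgeR). In KO 2 both Rpl13a (779.1 CPM) and Rpl38 (6.63 CPM) were within the WT range.

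The 40S genes had a median log2 fold change of -0.90 over 6 libraries and -1.51 over 4 (18 of 33 called lower). The 60S genes had one of -0.75 and -1.16 (21 of 48 called lower). Of all genes 13.9% were called lower over 4 libraries. Whether the subunits differ was not tested. Along the path of the mRNA, 4 of 6 genes were called over 4 libraries, with a median of -1.64. Rpsa, which is also known as the laminin receptor, had 416.4, 657.9 and 470.0 CPM in WT and 162.2, 359.1 and 132.3 CPM in KO. All 3 KO libraries were below all 3 WT libraries, and the log2 fold change was -1.26 (SE 0.43, adjusted p = 0.184, edgeR) over 6 and -1.88 (SE 0.34, adjusted p = 0.0358, edgeR) over 4.

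Rps3, at the mRNA entry and with a side role in DNA repair, had a log2 fold change of -1.50 over 4 libraries that just missed the threshold (SE 0.37, adjusted p = 0.0531, edgeR). Rps26, at the exit, was called (-1.66, SE 0.31, adjusted p = 0.0374, edgeR), and its level in KO 2 (224.6 CPM) lay between those of WT 1 (156.0 CPM) and WT 3 (229.7 CPM). Rps14 and Rps15 had -1.03 and -0.67 over 4 libraries, and neither passed. Rps27a, which is made as a fusion with ubiquitin, had -1.51 (adjusted p = 0.0513, edgeR).

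Rps6, the substrate of the S6 kinases whose phosphorylation is a common readout of mTOR, had a smaller fold change than most members. It had 19.7, 26.4 and 19.5 CPM in WT and 12.9, 20.8 and 13.6 CPM in KO, with KO 2 inside the WT range. Its log2 fold change was -0.49 (SE 0.26, adjusted p = 0.219, edgeR) over 6 libraries and -0.81 (SE 0.24, adjusted p = 0.0694, edgeR) over 4. These are mRNA levels and say nothing of phosphorylation.

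Of 10 members mutated in Diamond-Blackfan anaemia, a failure of red cell production caused by too little of 1 ribosomal protein, all had a lower level in KO. Their median was -0.89 over 6 libraries and -1.58 over 4, where 5 were called lower (background 13.9%). Rps19, the one most often mutated, had 118.9, 197.2 and 176.9 CPM in WT and 56.9, 146.3 and 45.7 CPM in KO. It was called over 4 libraries at -1.64 (SE 0.31, adjusted p = 0.0376, edgeR). Rps24 had no overlap between groups over 6 libraries, with 264.0, 403.8 and 353.2 CPM in WT against 123.1, 243.5 and 105.0 CPM in KO. Its log2 fold changes were -1.14 (SE 0.37, adjusted p = 0.184, edgeR) and -1.56 (SE 0.30, adjusted p = 0.0384, edgeR).

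At the other end stood genes with fold changes near 0 or above it. Rps27 had 1.76, 2.02 and 2.42 CPM in WT and 2.28, 1.83 and 2.03 CPM in KO, with groups that overlapped. Its log2 fold change was -0.03 (SE 0.27) over 6 libraries and 0.18 (SE 0.36) over 4, on 37 to 49 counts per library, and its sign turned with the scaling. Rps29 had -0.25 (SE 0.36) and -0.31 (SE 0.45). Rpl15 had 59.9, 71.4 and 58.9 CPM in WT and 52.1, 58.1 and 58.7 CPM in KO, a narrow gap with no overlap, at -0.19 (SE 0.14, adjusted p = 0.337, edgeR) and -0.26 (SE 0.18, adjusted p = 0.307, edgeR).

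Rpl3, a core 60S protein near the peptidyl transferase site, was higher in every KO library. It had 77.9, 64.7 and 60.4 CPM in WT and 102.1, 83.8 and 98.3 CPM in KO. The log2 fold change of 0.47 (SE 0.15, adjusted p = 0.184, edgeR) over 6 libraries and 0.48 (SE 0.18, adjusted p = 0.101, edgeR) over 4 did not pass, and without KO 2 it passed at 0.57 (adjusted p = 0.0253, edgeR). Rpl3 lies on the minus strand of chromosome 15 (80077791 to 80091868, GRCm38), where its span overlaps Syngr1, a synaptic vesicle gene, though no exon of one overlaps an exon of the other. Syngr1 had 266.5, 102.4 and 166.4 CPM in WT and 506.5, 206.6 and 727.0 CPM in KO, and its part in the values of Rpl3 was not tested.

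Rps4l had the highest fold change of all members. It had 7.66, 3.77 and 2.71 CPM in WT and 18.6, 14.2 and 13.2 CPM in KO, so that each KO library, KO 2 included, lay above each WT library. The log2 fold change was 1.69 (SE 0.42, adjusted p = 0.184, edgeR) over 6 libraries and 1.46 (SE 0.43, adjusted p = 0.0667, edgeR) over 4. It passed with DESeq2 over 6 libraries (1.73, adjusted p = 0.0149) and in edgeR without KO 2 (1.75, adjusted p = 0.0245). GENCODE lists Rps4l as a transcribed processed pseudogene (chromosome 6, 148354656 to 148355598, plus strand, GRCm38), so it is not a gene for a ribosomal protein by that annotation. It lies within an intron of Tmtc1, an endoplasmic reticulum protein gene on the opposite strand, which had 76.3, 28.4 and 42.6 CPM in WT and 142.2, 57.1 and 148.6 CPM in KO. Whether counting used strand is not given in the sources used here, so reads from the intron of Tmtc1 and from Rps4l cannot be told apart.

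Paralogs and their standard partners were set side by side as a ratio of CPM within each library, which does not depend on the scaling between libraries. The genes differ in length and in how much sequence they share with other genes, so a ratio is read across libraries and not as a share. Rps27l, a p53-responsive paralog of Rps27 and shown above beside it, had 58.2, 90.1 and 91.2 CPM in WT and 11.9, 71.4 and 9.37 CPM in KO. It was thus 33.1, 44.7 and 37.7 times the level of Rps27 in the WT libraries, and 5.20, 39.1 and 4.62 times in KO 1, KO 2 and KO 3. The ratio in KO 2 lay within the WT range and those of KO 1 and KO 3 far under it. Rps27l had a log2 fold change of -1.39 (SE 0.81, adjusted p = 0.25, edgeR) over 6 libraries and -2.82 (SE 0.30, adjusted p = 0.0343, edgeR) over 4. It was the only member still called when KO 3 was left out of the 4 (-2.64, adjusted p = 0.043, edgeR), and it was also called without KO 1, WT 1 or WT 2, with log2 fold changes from -3.10 to -2.46.

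The ratios of Rpl22l1 and Rpl7l1 to their partners were higher in KO 1 and KO 3 than in the other libraries. Rpl22l1, which can replace Rpl22 in the ribosome, was 0.157, 0.177 and 0.194 times the level of Rpl22 in WT and 0.314, 0.194 and 0.326 times in KO. Rpl22 was called lower over 4 libraries (-1.31, SE 0.29, adjusted p = 0.0459, edgeR), and Rpl22l1 was not (-0.39, SE 0.30, adjusted p = 0.347, edgeR). The difference between them was not tested. Rpl7l1 was 0.150, 0.147 and 0.173 times Rpl7 in WT and 0.215, 0.167 and 0.256 times in KO, and both were called lower over 4 libraries (-1.44 and -2.10, adjusted p = 0.0371 and 0.0348, edgeR). Rpl3l had 3 to 9 counts in each library, at most 0.469 CPM, and no comparison was made.

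Levels differed widely among the members, a comparison that needs values per length. By the authors' FPKM, averaged over 6 libraries, the members had a median of 110.2 and ran from 0.219 (Rpl3l) to 1052.4 (Rplp1), and 78 of 82 lay above the median of all genes (9.73). Rplp1, Rpl32 (948.4) and Rpl4 (864.3) were highest, and Rpl26 (4.52) and Rps27 (5.95) were lowest after Rpl3l. Rplp1 is an acidic stalk protein and Rpl3l a paralog outside the standard set. Without them the members still ran from 4.52 (Rpl26) to 948.4 (Rpl32). The 10 members with the most counts held 47.3% of all counts on members, and the 20 with the fewest held 1.17%.

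Most members share sequence with other annotated genes. Of the 50-base windows of a reference transcript (GENCODE, the read length by the study's methods), a median of 45.0% occur in no other annotated gene, and 80 of the 82 share a window with an annotated pseudogene. The share of windows found nowhere else was 1.35% for Rps27 and 77.6% for Rps27l, 14.4% for Rpl3, 24.8% for Rpl15, 6.16% for Rpl5 and 15.4% for Rps6. It was 58.2% for Rplp0. Windows shared with a gene whose exon overlaps at the same place were included, although a read from there can have only 1 place in the genome. Such an exon overlap exists for 20 members, Rpl5 with Fam69a among them, and its part was not separated. The median FPKM was 187.5 for the 34 members with at least 50% of such windows and 52.2 for the other 48. Across 81 members, which share libraries and depth, the share of windows had a Spearman rho of 0.39 with log2 FPKM, and of -0.13 (6 libraries) and -0.15 (4 libraries) with the log2 fold change. Members with at least 50% had a median log2 fold change of -0.88 and -1.50, and the others one of -0.75 and -1.19. The low levels of Rps27, Rpl5 and Rps6 thus stand beside a low share of unique windows, and the part of one in the other was not tested.

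**Figure D4:**
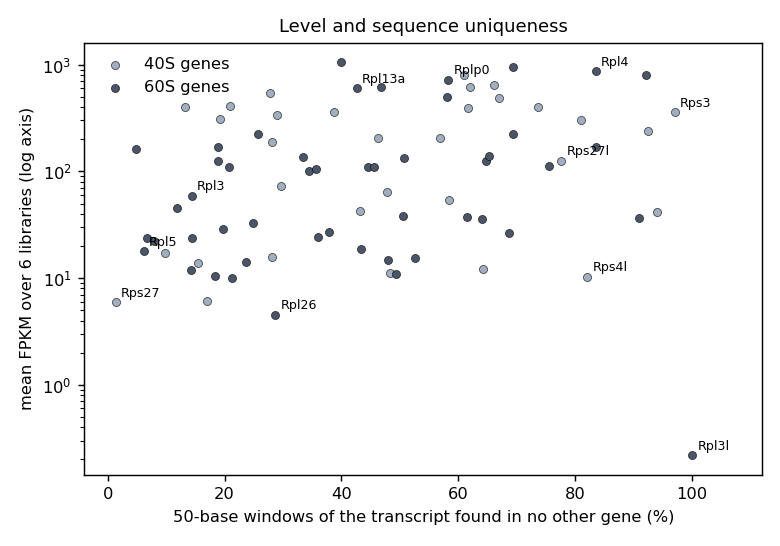
Mean FPKM over 6 libraries (log axis) against the share of 50-base windows of the transcript found in no other gene (percent), 1 point for each of 81 ribosomal protein genes, with 40S genes light and 60S genes dark. Rps27 sits at the lower left (5.95 FPKM, 1.35%), Rps27l, Rplp0 and Rpl4 stand higher to the right, and Rpl3l lies alone at the lower right.

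More abundant members also had lower fold changes. Over the 81 tested members, log2 mean CPM and log2 fold change had a Spearman rho of -0.47 over 6 libraries and -0.46 over 4, a description across genes that share all libraries. The 26 tested members with a pyrimidine run at a listed start site had a median log2 fold change of -0.78 over 6 libraries and -1.17 over 4, and the 34 with a listed start site but no run had -0.96 and -1.56. Rpl4 was counted among those without a run, although it opens with C and T from its GENCODE start. The printed start sites show both, since Rpl18 with a run of 10 letters and Rplp0 with one of 2 letters both stood among the lowest fold changes, while Rpl15 with 17 letters had a fold change near 0. The E-box letters CACGTG, which read the same on both strands and which MYC can bind, occurred in 11.0% of the members' windows of 250 bases before to 50 after the start, against 7.15% of all windows. The 6 tested members with these letters had a median of -0.91 and -1.42. Myc itself had 168.2, 285.3 and 189.7 CPM in WT and 8.78, 130.8 and 4.17 CPM in KO. Its lowest libraries were KO 3 and KO 1 and its highest WT 2 and WT 3, as for the ribosomal protein share, and KO 2 and WT 1 stood in the opposite order.

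Other genes of translation were compared to show where the ribosomal proteins differ from them. In a list of 20 translation genes, many with a pyrimidine tract, all 20 had a lower level in KO. Their median log2 fold change was -0.79 over 6 libraries and -1.13 over 4, where 14 were called lower (background 13.9%, also for the lists that follow). They ran from Gnb2l1, which encodes the 40S scaffold RACK1 (-1.78 over 6 and -2.89 over 4, adjusted p = 0.0343, edgeR), to Fau, the precursor of a 40S protein fused to a ubiquitin-like domain (-0.38 and -0.53). In 25 nucleolar genes of ribosome biogenesis the medians were -0.88 and -1.19, with 13 called lower over 4 libraries. The 77 mitochondrial ribosomal protein genes had medians of -0.36 and -0.45, with 4 called lower over 4 libraries. The 11 genes for S6 kinases and ribosome signaling had medians of -0.09 and -0.03, and 2 were called lower over 4 libraries, among them Eif4ebp1, a repressor of cap-dependent initiation that mTOR inactivates (-3.57, adjusted p = 0.0343, edgeR). In each of these lists 0 genes were called over 6 libraries. At an unadjusted p under 0.05 the lists had 11, 18, 19 and 2 lower genes there, in the order given (background 11.9%).

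**Figure D5:**
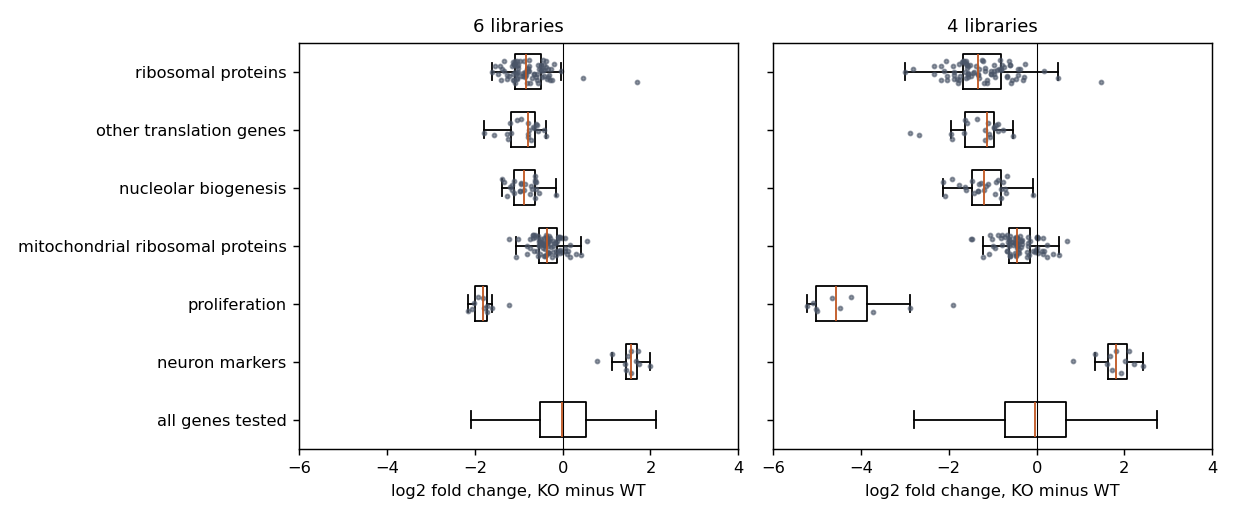
Log2 fold change (KO minus WT) of single genes in 6 lists and of all genes tested, over 6 libraries (left) and 4 libraries (right), with points for genes, boxes for the quartiles, a line at the median and whiskers by Tukey's rule. Ribosomal proteins (medians -0.82 and -1.33) lie beside the other translation and nucleolar genes, left of mitochondrial ribosomal proteins (-0.36 and -0.45), while proliferation genes reach further left over 4 libraries (median -4.57) and neuron markers lie right of 0.

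Markers of other cell types also differed between these libraries. Summed over 11 neuron markers, levels were 5971.0, 1909.6 and 3599.5 CPM in WT and 13658.3, 5118.6 and 16477.1 CPM in KO. The order of the 6 libraries in this sum was the exact reverse of their order in the ribosomal protein share. Over 8 markers of myelinating oligodendrocytes the sum ran from 1356.8 to 3483.5 CPM in WT and from 3324.7 to 7743.2 CPM in KO, and over 6 astrocyte markers from 2803.1 to 3565.8 CPM and from 3860.6 to 5594.0 CPM. The astrocyte sum was carried by Slc1a2, a glutamate transporter gene, with 1376.4, 552.5 and 814.4 CPM in WT and 4143.5, 1937.1 and 3755.2 CPM in KO. Gfap, the intermediate filament gene of astrocytes, went the other way with 1092.3, 1143.0 and 1116.5 CPM in WT and 247.3, 822.8 and 223.9 CPM in KO, and it alone of the 6 was called over 4 libraries (-2.26, adjusted p = 0.0343, edgeR). The sum of 7 glioma cell genes ran from 1224.9 to 2005.3 CPM in WT and stood at 326.3, 1223.1 and 239.9 CPM in KO, and that of 10 proliferation genes ran from 1326.2 to 2368.0 CPM in WT and stood at 158.9, 1466.1 and 72.6 CPM in KO. Over 4 libraries edgeR called 0 of the 11 neuron markers, 0 of the 8 oligodendrocyte markers, 7 of the 7 glioma cell genes (all lower) and 9 of the 10 proliferation genes (all lower). The background for these and the next lists over 4 libraries was 13.9% lower and 2.87% higher. Summed levels of 8 endothelial markers ranged from 199.0 to 240.0 CPM in WT and from 177.8 to 236.4 CPM in KO, those of 5 T cell markers from 22.0 to 27.0 CPM and from 4.89 to 34.5 CPM, and those of 9 microglia and macrophage markers from 919.4 to 982.9 CPM in WT and from 506.4 to 1309.1 CPM in KO. Over 4 libraries edgeR called 0 of the 8 endothelial markers, 4 of the 5 T cell markers (Cd3d, Cd3e, Cd3g and Cd8a, all lower by over 4-fold, median of the list -2.93) and 5 of the 9 microglia and macrophage markers (all lower, median of the list -1.56). Cd4, which was not called (0.57, adjusted p = 0.603, edgeR), made up 22.9 CPM of the T cell sum in KO 1. Over 6 libraries 0 markers of these 3 lists were called by edgeR. At an unadjusted p under 0.05 (background 11.9% lower and 15.2% higher) there were 1 lower and 2 higher endothelial, 0 T cell, and 1 lower and 1 higher microglia and macrophage markers. The part of cell makeup in the ribosomal protein result was not tested.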

How the data were processed

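The authors extracted total RNA from frozen tumors and counted reads on genes. Per the labels, libraries were made with the NEBNext Ultra kit, and the submitters' processing notes name CASAVA 1.8.2, edgeR and mm10. The study's methods name another kit, counting of uniquely mapped reads, and a human genome. The deposited counts are whole, not normalized, for 16729 genes, each with a count in at least 4 libraries. FPKM were computed by the authors per gene and library, and were used here only to compare levels between genes. The table's 9 other columns of per-sample values, and the authors' own fold changes and p-values, were not used.

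The fits used edgeR 4.0.16 under R 4.3.3 (filterByExpr with minimum count 10 and total 15, TMM factors, quasi-likelihood F test, Benjamini-Hochberg over all genes tested) over 6 libraries, and over 4. CPM used TMM factors over 6 libraries, and a single count equalled 0.0445 to 0.057 CPM. The fits were tested on simulated data. Alternatives were other scalings, no filter, DESeq2 1.42.0, edgeR's exact test, each library left out and a replicate block. Transcripts, windows and overlaps came from GENCODE on GRCm38, the mouse build that mm10 names, and start sites from RefSeq.

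Members and lists were chosen with earlier results of these data known. Named genes were the 5 highest and lowest fold changes and the 3 smallest p in each direction, genes fixed for their role, paralogs with their partners, and the 3 highest and lowest FPKM. Rpl10l and Rpl39l, which the rule also names, were not analysed here, and 1 further gene the rule names is not reported here, nor drawn in the plots of single genes.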

Additional observations from a re-analysis of the deposited data

How the results depend on the processing

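Of the alternatives over 6 libraries, calls appeared with the library labelled KO 2 left out, with the 4 libraries and with DESeq2. Without KO 2 there were 64 lower and 2 higher (background 28.3% and 24.5%), with a median log2 fold change of -1.35. The 4 libraries gave 39 lower (background 13.9%, median -1.33), and DESeq2 gave 1 higher (background 4.68%). Leaving out each of the 6 in turn gave 0 to 64 lower and 0 to 2 higher calls and medians from -1.35 to -0.59. Over the 4 libraries the same gave 1 to 72 lower and 0 to 2 higher calls and medians from -1.61 to -0.95. DESeq2 and edgeR's exact test each gave 1 higher call there, and 9 lower calls were also beyond a 4-fold change. Mean shares ranged over libraries left out from 1.66 to 2.16% in WT and from 0.544 to 1.09% in KO, within 1 SD. Of all results that are not single genes, 76 alternative values were graded as the same and 14 as moved. The grade is coarse, since 53 lower calls by DESeq2 over 4 libraries (background 19.5%) were graded the same as the 39 by edgeR. Whether replicate numbers pair the samples is not given by the labels. Same-numbered samples deviated from their group means with correlations of 0.553, 0.596 and -0.21, and so few pairs cannot decide it. With the replicate number as a block, the fit over 6 libraries gave 0 calls and a median of -0.92. Plain library sizes moved the median of all genes to -0.174 over 6 libraries and -0.274 over 4.

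Rps27 turned positive over 6 libraries with RLE scaling (0.01), DESeq2 (0.00) and over 4 libraries (0.18), and ran from -0.15 to 0.12 with libraries left out, where it was positive without KO 2 (0.07) and WT 3 (0.12). Over 4 it was negative with plain library sizes (-0.07). With libraries left out of the 4, Rps29 ran from -0.70 to 0.11 (positive without KO 3, 0.02, and WT 2) and Rpl22l1 from -0.74 to 0.08 (positive without WT 2). For single named genes 715 alternative values kept their direction and side of the threshold, 85 became calls and 31 lost theirs. Restricted to members with at least 50% unique windows, an alternative chosen after seeing the data, the medians were -0.88 and -1.50. Except where libraries were left out, the cause of these changes was not tested. Rpl3l, with 3 to 9 counts per library, was not tested, and Rps27 rested on 37 to 49.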

Other observations

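Several ribosomal protein genes and pseudogenes in the table lie outside the symbol pattern, and they were chosen with their values already known. Rps15a-ps6, by its symbol a pseudogene of Rps15a, had 19.2, 37.4 and 28.0 CPM in WT and 2.05, 27.2 and 1.56 CPM in KO. KO 2 again lay within the WT range. Its log2 fold change was -1.48 (SE 1.10, adjusted p = 0.34, edgeR) over 6 libraries and -3.98 (SE 0.45, adjusted p = 0.0343, edgeR) over 4, where no tested member had a lower one (Rplp0, -2.99). Rpl14-ps1 had log2 fold changes of -0.90 and -1.23 (adjusted p = 0.0519, edgeR, over 4), and Rpl36al, a working retrogene copy of Rpl36a, had -0.68 and -1.02 (adjusted p = 0.0556, edgeR, over 4). Rps15a-ps4, Rps19-ps3 and Rpl31-ps12 had -1.23, -0.44 and -0.57 over 4 libraries, and none passed. Reads that such copies share with their parent genes could be counted on either, and how they were split is not given in the sources used here.

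Of the 82 members, 30 hold 58 annotated small nucleolar RNA genes within their span, and 20 have an exon that overlaps an exon of another annotated gene. The members lie on 19 chromosomes, and their coding lengths run from 78 to 1260 bases with a median of 459.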
